A study of Mus musculus with 6 samples.

Results

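Catecholamine signalling was followed in adult mouse hearts through 8 genes: the alpha-1 adrenergic receptors Adra1a, Adra1b and Adra1d, the beta receptors Adrb1 and Adrb3, the adenylyl cyclases Adcy5 and Adcy6, and the receptor kinase Grk5. Members were taken by gene name, 1 row each, from an expression table of 54532 genes. RNA had been sequenced from 3 Mrps5 fl/fl hearts (Ctrl), whose Mrps5 alleles are flanked by loxP sites, and from 3 Mrps5 fl/fl; MCM hearts (cKO). MCM is MerCreMer, a Cre recombinase that acts in cardiomyocytes once tamoxifen is given, and Mrps5 encodes a small-subunit protein of mitochondrial ribosomes. All 6 mice had received tamoxifen at 8 weeks of age (45 mg/kg/day for 5 days, intraperitoneally), and hearts were taken 12 weeks later; the study's methods describe ventricular tissue of littermates, but state an age at harvest that is younger than these labels imply, and the labels were followed. Ctrl mice had no MCM, so the loss of Mrps5 and the presence of Cre cannot be told apart. Other cells of the heart were not targeted and contributed to the same RNA.

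Noradrenaline from sympathetic nerves and adrenaline from blood act on the heart through 2 receptor classes. Beta receptors couple to the stimulatory G protein, which switches on adenylyl cyclase; cyclic AMP then activates protein kinase A, and the heart beats faster and harder. Alpha-1 receptors couple to Gq proteins instead, which activate phospholipase C-beta and, through diacylglycerol and calcium, protein kinase C; they are known for growth and survival signals in cardiomyocytes and for contraction of vessels. Receptor kinases such as GRK5 phosphorylate receptors that have bound hormone, arrestins then uncouple them, and phosphodiesterases remove cyclic AMP.

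Sequences at the start of 4 of the 8 members were found in the RefSeq promoter table (mouse GRCm38.p6; 250 bases before the transcription start to 50 after it). Shown here are those of Adra1b and Adrb1, the most abundant alpha-1 and beta receptor mRNAs of the members per gene length, and of Grk5, which rose in cKO hearts. Adra1b has 2 annotated starts. Its distal start (chr11:43901188-43901487, minus strand) lies at the 5′ end of the gene, and its internal start (chr11:43836440-43836739, minus strand) lies inside the gene model. The Adrb1 window is chr19:56721867-56722166 (plus strand). It lies wholly before the start of Adrb1 in the deposited coordinates (56722372), so the RefSeq start used here is not the start of that gene model. The Grk5 window is chr19:60889499-60889798 (plus strand). Capitals mark GC boxes (GGGCGG) and CACCC boxes (CCACCC), searched on both strands.
Adra1b, distal start: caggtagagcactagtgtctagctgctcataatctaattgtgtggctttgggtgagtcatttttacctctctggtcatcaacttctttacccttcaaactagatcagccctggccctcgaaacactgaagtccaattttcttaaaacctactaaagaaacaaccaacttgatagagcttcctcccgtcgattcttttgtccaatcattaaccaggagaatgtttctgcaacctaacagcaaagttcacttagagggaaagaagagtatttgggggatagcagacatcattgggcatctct
Adra1b, internal start: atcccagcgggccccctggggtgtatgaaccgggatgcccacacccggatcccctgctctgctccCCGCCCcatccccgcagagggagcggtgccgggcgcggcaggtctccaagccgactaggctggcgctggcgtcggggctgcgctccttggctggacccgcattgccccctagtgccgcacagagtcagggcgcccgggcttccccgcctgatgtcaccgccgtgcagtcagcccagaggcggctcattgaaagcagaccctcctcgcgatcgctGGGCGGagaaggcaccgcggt
Adrb1: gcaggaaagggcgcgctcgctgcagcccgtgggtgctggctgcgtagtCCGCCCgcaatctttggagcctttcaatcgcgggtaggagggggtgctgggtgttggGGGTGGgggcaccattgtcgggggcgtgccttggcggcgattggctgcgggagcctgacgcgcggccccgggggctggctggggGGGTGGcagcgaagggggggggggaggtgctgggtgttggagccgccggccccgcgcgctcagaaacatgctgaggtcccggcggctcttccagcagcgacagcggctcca
Grk5: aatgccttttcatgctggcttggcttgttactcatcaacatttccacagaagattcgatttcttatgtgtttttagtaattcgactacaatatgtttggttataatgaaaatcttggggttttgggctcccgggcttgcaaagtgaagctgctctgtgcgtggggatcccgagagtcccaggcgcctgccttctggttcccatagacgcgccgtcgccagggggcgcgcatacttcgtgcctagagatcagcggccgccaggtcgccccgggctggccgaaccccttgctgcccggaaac

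The starts of Adra1b differed in base composition: GC content was 42.3% at the distal start and 71.3% at the internal start, against a median of 52.7% over all 32851 windows in that table. The internal start held 2 GC boxes and the distal start held neither motif. The Adrb1 window, at 72.3% GC, held 1 GC box and 2 CACCC boxes, and the Grk5 window, at 54.3% GC, held none of either. GC boxes were present in 35.7% and CACCC boxes in 31.5% of all windows. No window of a member held a cyclic AMP response element (TGACGTCA, in 1.79% of windows), an E-box (CACGTG, 7.15%) or a GATA motif (AGATAA, 11.2%).

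Libraries held 15989322 to 24875499 reads assigned to genes. Mrps5 itself measured 5.20, 6.45 and 6.33 FPKM in the Ctrl hearts (values of a group are always given in the order of replicates 1 to 3). The cKO hearts held 1.12, 1.23 and 1.31 FPKM of it. FPKM, the deposited unit, is fragments per kilobase of gene, scaled to library size. The remainder was 20.4% of the Ctrl mean in FPKM. The fitted difference was -1.65 (SE 0.09, limma adjusted p = 0.000202) on the log2(FPKM + 1) scale, which understates changes of genes at low FPKM and is used for all fitted differences here. Of 12944 genes tested, 2110 were higher and 2205 lower in cKO (limma, adjusted p under 0.05); scaled to the total without mtDNA-encoded genes, which took 39.6% to 42.1% of FPKM in Ctrl and 33.3% to 38.0% in cKO, the numbers were 2717 and 1609. Ventricular cardiomyocyte markers were abundant in every heart (Myl2 at 2024 to 4337 FPKM). The summed FPKM of 3 atrial markers (Myl7, Sln and Myl4) ranged from 25.2 to 990 in Ctrl and from 105 to 714 in cKO. The library of cKO replicate 2 stood apart. It had Xist at 10.7 FPKM and no read of the Y-linked Ddx3y. The other 5 hearts had Ddx3y at 12.7 to 17.7 FPKM and Xist at or under 0.127 FPKM. The study states that all its mice were male, and the labels do not give sex. Read counts of this heart also differed more from cKO replicates 1 and 3 (mean chi-square per gene 43.1 and 40.8) than those did from each other (16.5). Results are therefore also given without this heart where that mattered.

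Among the members, the alpha-1A receptor mRNA fell to 22.1% of its Ctrl level, while the mRNA of the main beta receptor did not differ detectably. Grk5 rose 1.60-fold, and the cyclases Adcy5 and Adcy6 stood at 88.4% and 86.6% of Ctrl. Of the 8 members, 7 had a mean of at least 0.5 FPKM and were tested. Of these, 1 was higher (Grk5), 1 was lower (Adra1a) and 5 did not pass, against a background of 33.3% of all genes tested that passed in either direction (16.3% higher, 17.0% lower). At an unadjusted p under 0.05 there were 4 of the 7, against 44.9% of all genes tested. Values of the groups did not overlap for 5 of the 7 (2 higher, 3 lower), against 51.2% of all genes tested (24.8% higher, 26.4% lower). The median log2 fold change of the 7 was -0.17, and that of all genes tested -0.02. The share of members called, 28.6%, was not above that of all genes.

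**Figure D1:**
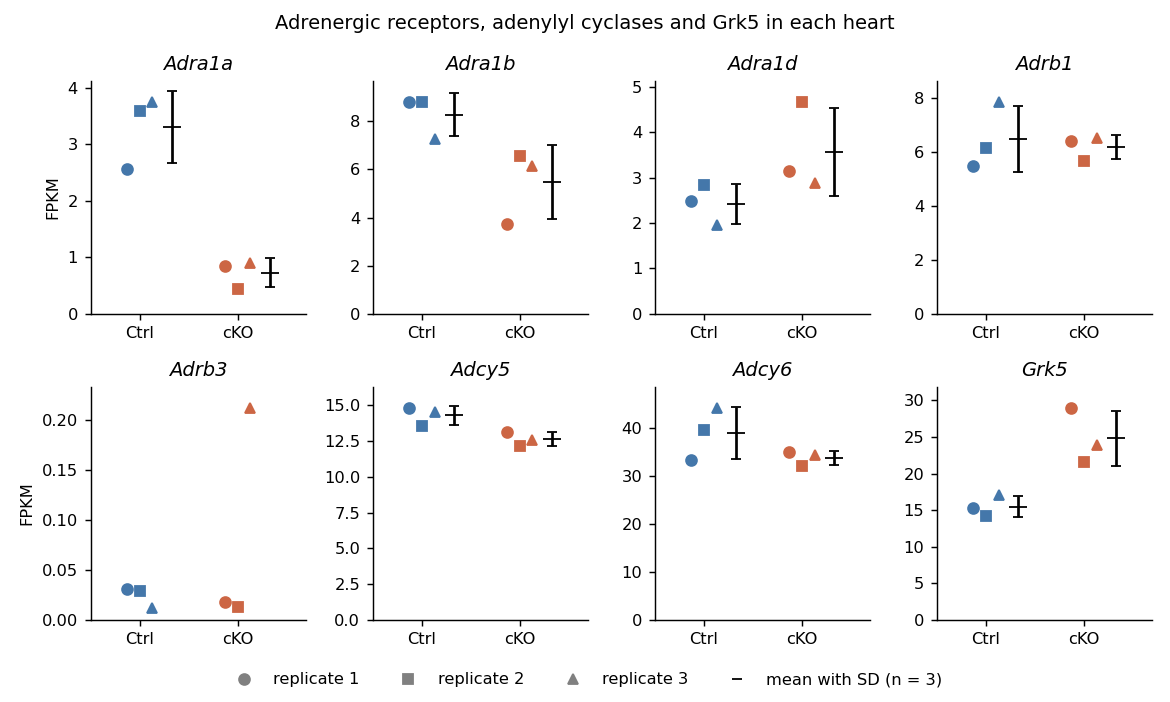
FPKM (vertical axes, each from 0) of the 8 members in the 3 Ctrl and 3 cKO hearts, with the mean and SD of each group where the gene was tested. Every cKO heart lies below every Ctrl heart for Adra1a (at most 0.902 against at least 2.57 FPKM) and above every Ctrl heart for Grk5 (at least 21.6 against at most 17.0 FPKM).

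Adra1a (ENSMUSG00000045875, chr14:66635251-66771168, plus strand) encodes the alpha-1A receptor, one of the alpha-1 subtypes of cardiomyocytes. The Ctrl hearts held 2.57, 3.59 and 3.74 FPKM (427, 652 and 790 reads). The cKO hearts held 0.846, 0.437 and 0.902 FPKM (125, 89 and 198 reads). The groups did not overlap, and the highest cKO heart was under the lowest Ctrl heart by more than the spread within either group. Ctrl averaged 3.30 ± 0.640 FPKM and cKO 0.728 ± 0.254 FPKM (SD, n = 3 each). On the log2(FPKM + 1) scale the difference was -1.31 (SE 0.15, 95% interval -1.68 to -0.95, limma adjusted p = 0.00198). No annotated gene overlaps Adra1a in the table.

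Adra1b (ENSMUSG00000050541, chr11:43774606-43901210, minus strand) encodes the alpha-1B receptor, and its distal and internal starts are printed above. In FPKM it was the most abundant alpha-1 receptor mRNA in every heart, at 8.79, 8.80 and 7.26 FPKM in Ctrl and 3.74, 6.57 and 6.14 FPKM in cKO. In reads, not per length, Adra1a was above it in Ctrl replicates 2 and 3 (652 against 619 and 790 against 594). The Adra1b groups did not overlap in FPKM, but cKO replicate 1 was far below the other cKO hearts. Means were 8.28 ± 0.887 and 5.48 ± 1.53 FPKM, with a log2 difference of -0.54 (SE 0.18, 95% interval -0.98 to -0.11) that missed the threshold (limma adjusted p = 0.0599). It passed only without cKO replicate 2 (-0.67, limma adjusted p = 0.0395), and without cKO replicate 1 the difference was -0.33.

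Adra1d (ENSMUSG00000027335, chr2:131545850-131562283, minus strand) encodes the alpha-1D receptor, known mainly from arteries. Its values were 2.49, 2.84 and 1.96 FPKM in Ctrl and 3.14, 4.67 and 2.89 FPKM in cKO, the opposite direction from the other alpha-1 receptors. All cKO values lay above all Ctrl values, though the nearest pair, 2.84 and 2.89 FPKM, almost met. Means were 2.43 ± 0.441 and 3.57 ± 0.963 FPKM, with a log2 difference of 0.40 (SE 0.16, 95% interval 0.01 to 0.79, limma adjusted p = 0.103), which did not pass. Without cKO replicate 2, the highest heart, the difference was 0.24. An antisense gene, Gm14285, overlaps an exon and had no reads.

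Adrb1 (ENSMUSG00000035283, chr19:56722372-56724862, plus strand) encodes the beta-1 receptor, the main beta receptor of cardiomyocytes. The Ctrl hearts held 5.47, 6.12 and 7.83 FPKM (260, 317 and 472 reads) and the cKO hearts 6.38, 5.66 and 6.50 FPKM (269, 329 and 407 reads). The cKO hearts lay inside the range of the Ctrl hearts. Means were 6.48 ± 1.22 and 6.18 ± 0.455 FPKM. The log2 difference was -0.05 (SE 0.12, limma adjusted p = 0.793), and its 95% interval of -0.34 to 0.25 spans folds of 0.788 to 1.19 on the log2(FPKM + 1) scale, so a smaller change in either direction could not be detected here. The sign was not stable: the difference was 0.078 without Ctrl replicate 3 and 0.032 with scaling that left out mtDNA-encoded genes.

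Adrb3 (ENSMUSG00000031489, chr8:27225776-27250616, minus strand) encodes the beta-3 receptor, best known from brown and white fat. It had 2, 2 and 1 reads in the Ctrl hearts and 1, 1 and 18 reads in the cKO hearts, which is 0.0122 to 0.0311 FPKM in Ctrl and 0.0175, 0.0127 and 0.212 FPKM in cKO. Only cKO replicate 3 held more than 2 reads, and the gene was under the filter and was not tested. That heart also had the brown fat gene Ucp1 at 5.25 FPKM; Ctrl replicate 1 had Ucp1 at 3.49 FPKM with 2 reads of Adrb3, and the other 4 hearts had Ucp1 at or under 0.144 FPKM. The 4 adipocyte markers summed to 1.37 to 10.8 FPKM in Ctrl and 0.866 to 8.99 FPKM in cKO, and their part in the Adrb3 reads was not tested. Gm45470 overlaps an exon of Adrb3.

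**Figure D2:**
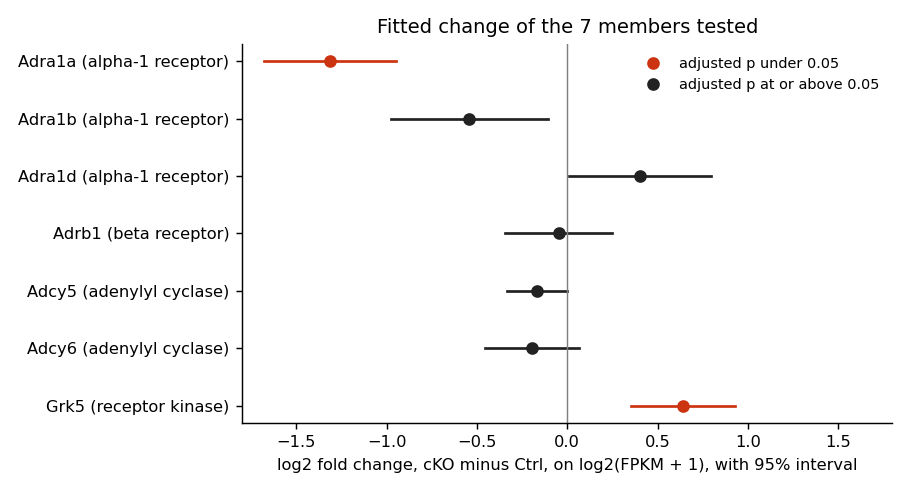
Log2 fold change of cKO against Ctrl on the log2(FPKM + 1) scale (horizontal axis) for the 7 members tested; points are limma estimates and bars are 95% intervals over 3 hearts per group. Adra1a at -1.31 and Grk5 at 0.64 passed the adjusted threshold, and the interval of Adrb1 (-0.34 to 0.25) spans 0.

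The receptors were then set against each other within each heart, on the per-length FPKM scale. The 3 alpha-1 receptors summed to 13.8, 15.2 and 13.0 FPKM in Ctrl and to 7.73, 11.7 and 9.93 FPKM in cKO, which did not overlap. Adrb1 and Adrb3, the beta receptors analysed here, summed to 5.51, 6.15 and 7.84 FPKM in Ctrl and to 6.40, 5.67 and 6.71 FPKM in cKO, which overlapped. Alpha-1 receptors made up 71.5%, 71.2% and 62.3% of the sum of both classes in Ctrl and 54.7%, 67.3% and 59.7% in cKO. Means were 68.4% ± 5.26 and 60.6% ± 6.35 (SD, n = 3 each), a difference of -7.79 percentage points, and the groups overlapped because cKO replicate 2 lay above Ctrl replicate 3.

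Ratios of single receptors were taken next. Adra1a stood at 0.469, 0.587 and 0.478 of the Adrb1 level in Ctrl and at 0.133, 0.0772 and 0.139 of it in cKO, without overlap. The ratio of Adra1b to Adrb1 was 1.61, 1.44 and 0.927 in Ctrl and 0.586, 1.16 and 0.945 in cKO, with overlap. In levels, Adra1b ranked first and Adrb1 next in Ctrl replicates 1 and 2 and in cKO replicate 2, and the order of these neighbours was exchanged in the other 3 hearts. Adra1a ranked above Adra1d in all 3 Ctrl hearts and below it in all 3 cKO hearts, and Adrb3 was last in all 6. These ranks rest on the deposited gene lengths (8728 bases for Adra1a, 3382 for Adra1b and 1899 for Adra1d). In reads, not per length, Adra1a was below Adra1d only in cKO replicate 2 (89 against 207). It was above Adra1d in cKO replicates 1 and 3 (125 against 101 and 198 against 138).

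Within the alpha-1 class the make-up changed in every cKO heart. Adra1a gave 18.5%, 23.6% and 28.9% of alpha-1 FPKM in Ctrl and 10.95%, 3.74% and 9.09% in cKO (23.7% ± 5.17 against 7.93% ± 3.74). Adra1d gave 18.0%, 18.6% and 15.1% in Ctrl and 40.7%, 40.0% and 29.1% in cKO (17.2% ± 1.86 against 36.6% ± 6.49). Adra1b gave 59.1% ± 3.92 and 55.5% ± 6.75, and its groups overlapped. The ratio of Adra1a to Adra1d was 1.03, 1.27 and 1.91 in Ctrl and 0.269, 0.0935 and 0.312 in cKO. These shares are descriptions, for which 3 against 3 hearts allow no exact permutation p below 0.1. In bulk RNA, fewer cells of a type and less RNA per cell cannot be told apart.

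**Figure D3:**
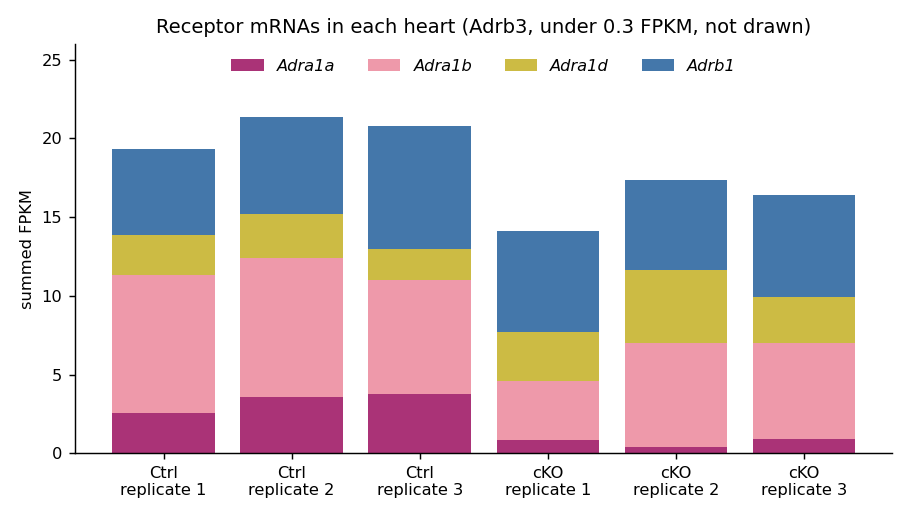
FPKM of the 3 alpha-1 receptors and Adrb1 stacked for each heart (vertical axis, summed FPKM; 1 bar per heart). The Adra1a segment shrinks from 2.57 to 3.74 FPKM in Ctrl to 0.437 to 0.902 FPKM in cKO, while the Adrb1 segment stays between 5.47 and 7.83 FPKM in all hearts.

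Markers of several cell types of the heart differed as well. The counts below rest on short lists and stand beside 16.3% of all genes tested that were higher and 17.0% that were lower. Of 6 cardiomyocyte markers, 3 were lower and none higher, and their summed FPKM was 10199 to 12108 in Ctrl and 5921 to 9070 in cKO. Of 5 smooth muscle and pericyte markers, 1 was higher (Acta2, 0.89 in log2) and 3 were lower, with sums of 199 to 217 and 113 to 141 FPKM. Of 5 endothelial markers, 3 were lower (sums of 109 to 127 and 71.2 to 86.0 FPKM). Of 4 fibroblast markers, 1 was lower (129 to 147 and 98.5 to 108 FPKM), and of 4 macrophage markers none passed (83.6 to 119 and 77.2 to 111 FPKM). Each sum is weighted to the most abundant genes of its list. The fibroblast sum mostly followed Dcn (104 ± 7.38 and 69.1 ± 12.2 FPKM), while Pdgfra, Tcf21 and Lum overlapped between groups. In the cardiomyocyte sum Myh6 and Myl2 weighed most. Of that list, 4 genes were lower without overlap, and Actn2 and Ttn overlapped. Of 5 neuronal markers, 1 could be tested. Th, the catecholamine synthesis gene of sympathetic neurons, was at or under 0.0336 FPKM, while Uchl1 was higher in cKO (6.27 to 6.33 against 28.9 to 58.6 FPKM). Among the Schwann cell genes, 1 of 3 genes could be tested and did not pass. The part of these shifts in the receptor values was not tested.

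Adcy5 and Adcy6 encode the calcium-inhibited adenylyl cyclases that make most cyclic AMP in cardiomyocytes. Adcy5 (ENSMUSG00000022840, chr16:35154877-35305738, plus strand) was at 14.8, 13.6 and 14.5 FPKM in Ctrl hearts and 13.2, 12.2 and 12.6 FPKM in cKO. All cKO hearts were lower, but by little: means were 14.3 ± 0.634 and 12.6 ± 0.504 FPKM, with a log2 difference of -0.17 (SE 0.07, limma adjusted p = 0.112). Adcy6 (ENSMUSG00000022994, chr15:98589973-98610076, minus strand) was at 33.3, 39.6 and 44.1 FPKM in Ctrl hearts and 34.9, 32.1 and 34.3 FPKM in cKO, which overlapped. Its means were 39.0 ± 5.39 and 33.8 ± 1.50 FPKM, with a log2 difference of -0.19 (SE 0.11, 95% interval -0.45 to 0.07, limma adjusted p = 0.213). Without Ctrl replicate 1 it was -0.30 and without Ctrl replicate 3 it was -0.10, and neither passed. Adcy5 was 27.0% ± 3.24 of the sum of both in Ctrl and 27.2% ± 0.380 in cKO. Of the other cyclases, 3 of 8 were abundant enough to test. Adcy9 fell from 6.19 ± 0.765 to 4.27 ± 0.511 FPKM (-0.45, limma adjusted p = 0.0225), a call that was lost in 5 of 14 alternative analyses.

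Grk5 (ENSMUSG00000003228, chr19:60889749-61092553, plus strand), whose start is printed above, encodes a receptor kinase that also acts in the nucleus in cardiomyocytes. The Ctrl hearts held 15.3, 14.1 and 17.0 FPKM (923, 931 and 1303 reads). The cKO hearts held 28.9, 21.6 and 23.9 FPKM (1549, 1597 and 1900 reads). Every cKO heart was above every Ctrl heart. Means were 15.5 ± 1.45 and 24.8 ± 3.74 FPKM, a log2 difference of 0.64 (SE 0.12, 95% interval 0.35 to 0.93, limma adjusted p = 0.00884).

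Of the 6 other kinases and arrestins listed, all were tested, and 1 was higher and 1 lower. Grk3 was at 2.04 ± 0.202 and 2.74 ± 0.379 FPKM, without overlap, and did not pass (0.30, limma adjusted p = 0.0638). Grk2, the other main cardiac receptor kinase and the most abundant of this list, was at 15.3 ± 1.09 FPKM in Ctrl and 14.5 ± 0.390 FPKM in cKO (-0.07, limma adjusted p = 0.497). Grk4 rose from 0.430 ± 0.117 to 0.893 ± 0.223 FPKM (0.40, limma adjusted p = 0.0367), a low level and a call lost in 7 of 13 alternatives. Grk6 fell from 4.41 ± 0.143 to 3.36 ± 0.220 FPKM (-0.31, limma adjusted p = 0.0171; lost in 2 of 14). The arrestins Arrb1 and Arrb2, which bind phosphorylated receptors, were at -0.17 and -0.06 on the log2 scale and did not pass.

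The rest of the pathway was taken from 12 lists of 95 genes, of which 74 were tested. Of these, 5 were higher and 22 lower (36.5% called, against 33.3% of all genes tested), 39 were past an unadjusted p under 0.05 (44.9% of all genes tested were), and the median log2 difference was -0.13. The lower share, 29.7%, stands beside 17.0% of all genes tested, and the higher share, 6.76%, beside 16.3%. Scaled without mtDNA-encoded genes the counts were 10 higher and 20 lower, and without cKO replicate 2 they were 4 and 22. Counts of single lists, in this and the other paragraphs, rest on few genes and stand beside the same shares of all genes.

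**Figure D4:**
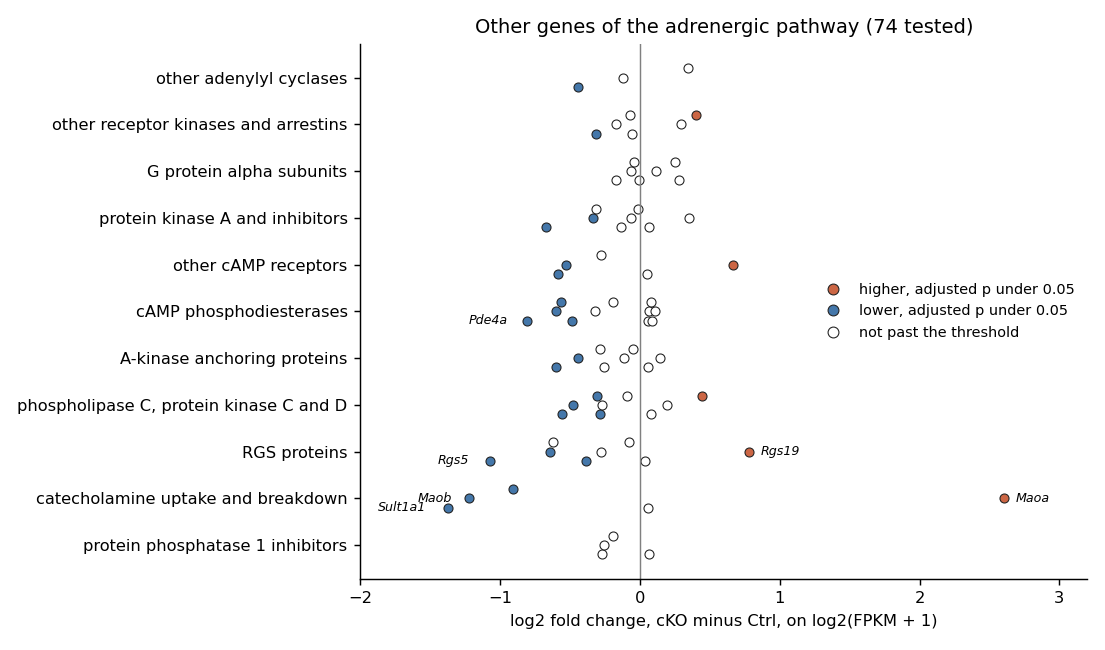
Log2 fold change of cKO against Ctrl on the log2(FPKM + 1) scale (horizontal axis) for the 74 pathway genes tested, 1 point per gene, in rows by list; filled points passed an adjusted p of 0.05, and vertical offsets within a row only separate points. Most filled points lie left of 0, and Maoa lies alone at 2.60.

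G protein alpha subunits did not pass in any of 7 cases. Gnas, which carries the beta signal, was at 5.09 ± 0.476 and 4.39 ± 0.281 FPKM (-0.17, limma adjusted p = 0.165), and the Gq subunits Gnaq and Gna11 were at 99.6% and 96.9% of their Ctrl means. Gnai2, the most abundant of the list, was at 64.0 ± 3.31 and 61.2 ± 1.47 FPKM. At an unadjusted p under 0.05 there was 1 of the 7, Gnao1, named after its values were seen (0.28). The alpha-2 receptors, which restrain noradrenaline release, were all under the filter; Adra2b was the highest, at 0.340 to 0.412 FPKM in Ctrl and 0.0891 to 0.203 FPKM in cKO.

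Downstream of the alpha-1 receptors, 9 of 11 genes of phospholipase C, protein kinase C and protein kinase D were tested, and 4 were lower and 1 higher. Plcb4, the most abundant of the list and a phospholipase that Gq activates, fell from 9.09 ± 0.485 to 5.85 ± 0.553 FPKM (-0.56, limma adjusted p = 0.00412). Prkd2, a kinase downstream of protein kinase C, fell from 3.91 ± 0.253 to 2.52 ± 0.175 FPKM (-0.48). Plcb1 (-0.31) and Plcb3 (-0.29) were lower too, but lost the call in 10 of 13 and 7 of 14 alternatives. Prkcd, a calcium-independent protein kinase C, rose from 3.11 ± 0.192 to 4.62 ± 0.504 FPKM (0.45, limma adjusted p = 0.0102). Prkca was at 0.08 and Prkce at -0.09, and neither passed.

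Downstream of cyclic AMP, 8 of 9 genes of protein kinase A and its inhibitors were tested, and 2 were lower. None of the 6 catalytic and regulatory subunits passed: Prkaca was at 107 ± 12.8 and 86.1 ± 5.94 FPKM (-0.31, limma adjusted p = 0.0598), and Prkar1a, the most abundant of the list, at 116 ± 6.84 and 150 ± 30.2 FPKM (0.35, limma adjusted p = 0.102). Both inhibitors tested did: Pkia fell from 58.2 ± 7.97 to 36.0 ± 2.61 FPKM (-0.67, limma adjusted p = 0.00571) and Pkig from 44.6 ± 1.33 to 35.1 ± 0.768 FPKM (-0.34, limma adjusted p = 0.00917). Among A-kinase anchoring proteins, which place the kinase at its targets, 2 of 8 tested were lower. Akap12, an anchor found with beta receptors, fell from 6.18 ± 0.208 to 3.78 ± 0.683 FPKM (-0.60), and Akap7 fell by 0.45 on the log2 scale (lost in 3 of 14 alternatives). Akap1, the mitochondrial anchor and the most abundant, was at 37.4 ± 1.52 and 31.3 ± 4.64 FPKM and did not pass.

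Other cyclic AMP receptors split. Rapgef3 and Rapgef4, the Epac exchange factors, fell from 3.68 ± 0.347 to 2.12 ± 0.192 FPKM (-0.59, limma adjusted p = 0.00405) and from 4.19 ± 0.114 to 2.62 ± 0.463 FPKM (-0.53, limma adjusted p = 0.00916). Popdc3, a Popeye-domain membrane protein, rose from 16.2 ± 1.42 to 26.3 ± 2.26 FPKM (0.66, limma adjusted p = 0.00340), while its relative Popdc2, the most abundant of the list at 227 ± 22.1 and 236 ± 31.7 FPKM, did not pass.

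Of 11 phosphodiesterases tested, 4 were lower and none higher, beside 17.0% lower and 16.3% higher of all genes tested. Pde4a, an enzyme specific for cyclic AMP and the most abundant of the list, was at 10.6, 11.0 and 12.3 FPKM in Ctrl and 5.37, 7.28 and 5.61 FPKM in cKO (-0.80, SE 0.12, limma adjusted p = 0.00358). Pde3a, the phosphodiesterase that cyclic GMP inhibits, fell from 8.72 ± 0.735 to 5.61 ± 0.831 FPKM (-0.56, limma adjusted p = 0.00975). Pde4c (-0.49) and Pde7a (-0.60) were lower, each with the call lost in 5 alternatives. Pde4d, a phosphodiesterase that binds arrestin, was at 2.13 ± 0.335 and 1.50 ± 0.245 FPKM and did not pass (limma adjusted p = 0.0707).

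RGS proteins shorten G protein signals. Of 8 tested, 3 were lower and 1 higher. Rgs5, the most abundant by far, was at 118, 119 and 133 FPKM in Ctrl and 53.4, 55.6 and 65.7 FPKM in cKO (-1.07, SE 0.10, limma adjusted p = 0.00113); it is also a pericyte marker and stands in the smooth muscle and pericyte list above. Rgs4 fell from 4.47 ± 0.572 to 2.51 ± 0.326 FPKM (-0.64) and Rgs3 from 2.89 ± 0.213 to 1.97 ± 0.190 FPKM (-0.39). Rgs19 rose from 2.04 ± 0.236 to 4.24 ± 0.442 FPKM (0.78, limma adjusted p = 0.00235). None of the 4 protein phosphatase 1 inhibitors tested passed the adjusted threshold (limma), and 1 was under an unadjusted p of 0.05 (Ppp1r2, -0.19, named after its values were seen). Hspb6, a small heat shock protein and the most abundant of that list, was at 417 ± 43.9 and 441 ± 88.7 FPKM; Lin37 overlaps its exons.

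The genes of catecholamine uptake and breakdown held the 3 largest fitted differences of the 74 pathway genes on the log2(FPKM + 1) scale (Maoa, Sult1a1 and Maob); in FPKM, Slc22a3 fell further than Sult1a1 and Maob, to 30.5% of Ctrl against 38.1% and 40.8%. Of 5 tested, 1 was higher and 3 lower. Maoa, a mitochondrial monoamine oxidase that prefers serotonin and noradrenaline, was at 1.69, 1.30 and 1.08 FPKM in Ctrl and 18.4, 7.08 and 17.4 FPKM in cKO (2.60, SE 0.33, limma adjusted p = 0.00244). Its relative Maob was at 22.8, 22.0 and 23.5 FPKM in Ctrl and 8.79, 7.89 and 11.2 FPKM in cKO (-1.22, SE 0.12, limma adjusted p = 0.00133). Neither overlapped between groups, and both genes are X-linked; the Xist-positive heart, cKO replicate 2, had the lowest Maoa and the lowest Maob of the cKO hearts.

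Their sum differed by less than the spread, at 24.2 ± 0.738 FPKM in Ctrl and 23.6 ± 7.51 FPKM in cKO. Maoa was 6.87%, 5.60% and 4.39% of that sum in Ctrl and 67.7%, 47.3% and 60.8% in cKO. Slc22a3, an uptake transporter for catecholamines outside neurons, was at 2.15, 2.10 and 1.85 FPKM in Ctrl and 0.419, 0.731 and 0.713 FPKM in cKO (-0.91, limma adjusted p = 0.00186). Sult1a1, a phenol sulfotransferase, was at 39.7, 38.8 and 42.1 FPKM in Ctrl and 19.4, 10.9 and 15.7 FPKM in cKO (-1.37, limma adjusted p = 0.00289); Sgf29 overlaps it on the opposite strand at a mean of 4.95 FPKM. The neuronal transporter Slc6a2 was at or under 0.0329 FPKM in every heart.

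**Figure D5:**
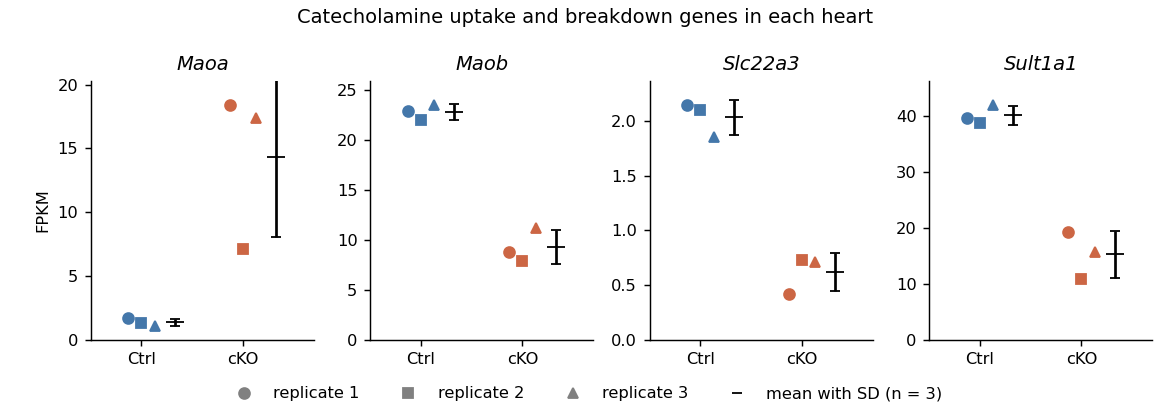
FPKM (vertical axes, each from 0) of Maoa, Maob, Slc22a3 and Sult1a1 in the 3 Ctrl and 3 cKO hearts, with the mean and SD of each group. Maoa is at 1.08 to 1.69 FPKM in Ctrl and 7.08 to 18.4 FPKM in cKO, while the other genes are lower in every cKO heart.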

How the data were processed

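The authors made poly-A selected libraries of heart RNA, aligned paired reads with HISAT2 (2.0.5 per the labels) and counted reads per gene with featureCounts (1.5.0-p3). They deposited FPKM values, scaled by gene length (an other, gene-level column that the authors deposited and that was taken as given) and library size. Strand and multi-mapping settings are not given in the sources used here. The submitters' notes name mm9, but gene coordinates matched GRCm38: of 54409 identifiers shared with GENCODE mouse release 21, 53499 had identical start and end.

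FPKM times length gave whole reads for 100% of values (tolerance 0.01), which set the depths. The implied library sizes were 0.913 to 0.980 times the read total in Ctrl and 1.06 times in cKO, so the values had been scaled between samples before deposit. Intervals cover the spread between hearts.

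Values were analysed as log2(FPKM + 1). A mean of 0.5 FPKM over all hearts was required for testing. limma 3.58.1 (R 4.3.3) fitted the groups with a trended eBayes prior and no covariates. Tests were two-sided, and Benjamini-Hochberg adjustment covered 12944 genes at a threshold of 0.05. The study's design of 2 groups without covariates was kept. Fold changes are cKO minus Ctrl, and ± gives the SD of 3 hearts. The genes named were the 8 members, Mrps5, every pathway gene past the threshold, the gene of each list with the highest Ctrl mean, the marker genes, and the 5 genes nearest in pattern to Adra1a and to Adrb1; further pathway genes given with values were chosen for their roles after their values were seen. Counts include a few listed genes that are not reported here by name. The members and lists were chosen with earlier results of these data known. The labels call the samples biological replicates. The script was tested on simulated data. Alternatives were a pseudocount of 0.1, other filters and scalings, no trend, voom on recovered reads, a replicate block, and each heart left out.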

Additional observations from a re-analysis of the deposited data

How the results depend on the processing

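Adra1a (log2 differences of -2.22 to -1.19) and Grk5 (0.53 to 0.73) kept their direction and their side of the threshold in all 14 alternatives, and Adcy5 and Adcy6 passed in none. With voom on recovered reads there were 2351 genes higher and 2150 lower, and 9 pathway genes higher instead of 5. When mtDNA-encoded genes were left out of the scaling total, 10 pathway genes were higher, Adrb1 turned to 0.032, and all genes stood at 2717 higher and 1609 lower, with a median log2 difference of 0.05 against -0.02. With a pseudocount of 0.1 the untested Adrb3 difference was 0.38 instead of 0.07. On recovered reads, not per length, the Adra1a share of the alpha-1 class differed by -25.9 percentage points instead of -15.7. For each of these, the cause was not tested.

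Leaving out 1 heart at a time gave 1396 to 1977 genes higher and 1423 to 2011 lower, with the lowest counts without Ctrl replicate 3 (higher) and Ctrl replicate 2 (lower), and fewer samples in each fit. Members lower were 1 to 2 (2 without cKO replicate 2, when Adra1b passed), and pathway genes higher 4 to 8 (8 without cKO replicate 3). Adra1b ranged from -0.67 to -0.33 and Adrb1 from -0.15 to 0.078, positive without Ctrl replicate 3 and, at 0.0050, without cKO replicate 2. Of the 27 pathway genes called, 19 kept the call throughout, 8 lost it at least once and none reversed.

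The labels do not say that hearts of the same number were paired. Their deviations from group means correlated at -0.06, 0.17 and -0.01, and only replicate 2 correlated best with its own number. With 3 hearts per group these values cannot decide whether hearts were paired. With the number as a replicate block, 1874 genes were higher and 1982 lower, 2 members were higher (Adra1d at 0.40 with limma adjusted p = 0.0318 joined Grk5), and 4 pathway genes were higher and 23 lower. The planned fits with edgeR and DESeq2 were not run, and voom on the recovered reads was the only count-based fit. The smallest exact permutation p for 3 against 3 hearts is 0.1. Genes at a few reads per heart, such as Adrb3, could not be compared at this depth.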

Other observations

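The genes whose values over the 6 hearts lay nearest to those of each receptor were sought among 11420 genes, by the root mean square difference of log2(FPKM + 1) after each gene was centred on its own mean. Nearest to Adra1a was Plin3, a lipid droplet coat protein, at a distance of 0.0612, with 72.8 ± 10.5 FPKM in Ctrl and 30.3 ± 3.54 FPKM in cKO. Cpeb3 (distance 0.0953; 17.0 ± 3.15 and 6.40 ± 0.479 FPKM), Dusp18 (0.113), Gm826 (0.115) and Pdp2, a phosphatase that activates pyruvate dehydrogenase (0.118; 6.40 ± 0.922 and 2.27 ± 0.348 FPKM), came next. Nearest to Adrb1 was Slc7a8, an amino acid transporter, at a distance of 0.0206 with 1.21 ± 0.367 and 1.14 ± 0.0952 FPKM, followed by Mia2 (0.0376), Narf (0.0378), Rhoj (0.0379) and Plekhm2 (0.0403). Nearness here holds for the log2(FPKM + 1) scale, which understates changes of genes at low FPKM. Adra1a itself was at 3.30 ± 0.640 and 0.728 ± 0.254 FPKM, or 22.1% of Ctrl, a larger relative fall than that of Plin3. With a pseudocount of 0.1 the Adra1a difference was -2.07 instead of -1.31, and the search was not repeated on that scale. These are descriptions over 6 hearts of 2 groups.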
